A study of Mus musculus with 17 samples.

Results

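The genes described are Podxl, Tspan32, Slc7a8, Bmpr1a, Tbx4, Ryr2 and Acnat1, 7 of the 27179 genes counted. They were chosen from measured values, as genes near silent in wild-type DN3a thymocytes and expressed in DN3a thymocytes of mice with an Lmo2 transgene. Their DN3a levels are therefore a description of the choice and carry no test. The question put to the data was whether the earlier DN2 stage, whose libraries the choice did not use, expresses them. Every DN2 mouse also gave a young DN3a library, so the DN2 values are not wholly separate from the choice.

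The data were counts of RNA-sequencing reads per gene in 17 libraries of thymocytes from C57BL/6 mice, either wild-type or transgenic for Lmo2. Young DN2 cells came from 2 wild-type and 3 transgenic mice aged 2.5 weeks. Young DN3a cells came from 3 wild-type mice, of which replicate 3 was aged 3 weeks and the others 2.5 weeks, and from 3 transgenic mice aged 2.5 weeks. Old DN3a cells came from 3 wild-type mice, aged 10 weeks (replicate 1) and 8 weeks (replicates 2 and 3), and from 3 transgenic mice, aged 6 weeks (replicate 1) and 10 weeks (replicates 2 and 3). Both wild-type and all 3 transgenic DN2 mice also gave a young DN3a library. No label used here names the promoter that drives the transgene or the markers by which the cells were sorted.

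DN2 and DN3a are successive steps of thymocyte development before CD4 and CD8 appear. At DN2 a thymocyte still keeps features of a blood progenitor, and at DN3a it is committed to the T lineage and rearranges its T cell receptor beta genes. LMO2 is a bridging protein of blood stem and progenitor cells that has no DNA-binding domain of its own and joins E proteins, which bind the E-box, to GATA factors. It is normally switched off early in the thymus.

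The 7 genes have unlike functions. Podxl encodes podocalyxin, a sialomucin of the CD34 family known from kidney podocytes, endothelium and blood progenitors. Tspan32 encodes a tetraspanin, a 4-pass membrane protein found mainly on blood cells. Slc7a8 encodes LAT2, the light chain of a neutral amino acid exchanger that pairs with the heavy chain encoded by Slc3a2. Bmpr1a encodes a type I receptor for bone morphogenetic proteins (BMPs), which passes the signal to SMAD proteins. Tbx4 encodes a T-box transcription factor of the hindlimb bud and the lung mesenchyme. Ryr2 encodes the ryanodine receptor of heart muscle, a calcium release channel of the endoplasmic reticulum. Acnat1 encodes an acyl-CoA to amino acid N-acyltransferase known from liver and kidney peroxisomes.

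They also lie apart in the genome. On GRCm38 the annotated spans are chromosome 6, 31519493 to 31563937 for Podxl, and chromosome 11, 85886367 to 85916097 for Tbx4. Tspan32 lies on chromosome 7, 143004907 to 143019486, and Acnat1 on chromosome 4, 49443532 to 49481315. Ryr2 lies on chromosome 13, 11553099 to 12106945. Bmpr1a (34411061 to 34503336) and Slc7a8 (54722215 to 54781886) share chromosome 14 but are not neighbours. Reads were counted per gene, so no value belongs to a single exon, intron or UTR.

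Promoter sequences from the RefSeq table (GRCm38.p6) were at hand for 6 of the 7 genes, Podxl being the one without an entry. The 250 bases before the listed start are shown for 4 genes, chosen because they cover the range of DN2 levels: Tspan32 and Slc7a8, with the most DN2 reads, Tbx4, with few, and Bmpr1a, with almost none. Bases are 5′ to 3′ on the gene's strand, and capitals mark an E-box (CANNTG) or GATA on either strand (TATC is GATA on the other strand). The windows are chr7:143004796-143005045 (plus strand) for Tspan32, chr14:54781887-54782136 (minus strand) for Slc7a8, chr11:85896515-85896764 (plus strand) for Tbx4 and chr14:34502547-34502796 (minus strand) for Bmpr1a. Those of Tspan32, Tbx4 and Bmpr1a lie partly or wholly inside the annotated span of the gene, which has further starts.
Tspan32: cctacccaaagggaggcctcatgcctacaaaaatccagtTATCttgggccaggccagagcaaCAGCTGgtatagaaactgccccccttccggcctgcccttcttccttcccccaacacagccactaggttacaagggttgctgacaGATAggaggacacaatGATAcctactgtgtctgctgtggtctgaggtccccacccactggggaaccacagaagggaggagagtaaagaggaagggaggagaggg
Slc7a8: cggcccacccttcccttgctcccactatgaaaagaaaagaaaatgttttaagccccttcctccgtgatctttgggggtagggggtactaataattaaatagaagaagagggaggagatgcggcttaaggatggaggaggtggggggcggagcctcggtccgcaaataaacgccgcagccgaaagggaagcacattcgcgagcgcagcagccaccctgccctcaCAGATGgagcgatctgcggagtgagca
Tbx4: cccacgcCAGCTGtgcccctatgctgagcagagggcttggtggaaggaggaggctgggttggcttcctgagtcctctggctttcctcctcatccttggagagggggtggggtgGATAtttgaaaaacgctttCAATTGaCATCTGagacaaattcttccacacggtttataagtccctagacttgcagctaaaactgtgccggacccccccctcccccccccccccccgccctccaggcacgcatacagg
Bmpr1a: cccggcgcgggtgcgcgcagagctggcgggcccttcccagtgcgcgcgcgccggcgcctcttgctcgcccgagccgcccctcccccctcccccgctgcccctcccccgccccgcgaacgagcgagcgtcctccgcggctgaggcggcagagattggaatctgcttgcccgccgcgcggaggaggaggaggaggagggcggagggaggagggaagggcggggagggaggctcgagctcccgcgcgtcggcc

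The letters differed from gene to gene. Tspan32 had 1 E-box and 3 GATA matches, Tbx4 had 3 and 1, Slc7a8 had 1 and 0, and Bmpr1a had 0 of either. Bmpr1a instead had the look of a CpG island, with 78.8% G and C and 36 CpG, against medians of 52.4% and 6 over all promoters. Of the 2 genes not shown, Ryr2 had 2 E-boxes and Acnat1 had 1 GATA. Neither motif is rare: among 32851 promoter windows of the same length, 66.2% held CANNTG and 53.6% held GATA. The composite site CANNTGNNNNNNNNNGATA, an E-box followed by GATA, was in 0.508% of windows and in 0 of these 6. The RUNX letters TGTGGT (14.0% of windows) occurred 2 times and the ETS letters CCGGAA (12.0% of windows) 1 time in Tspan32, and in no other of the 6. CCGGAA was searched, like the rest, on both strands. A match is a description of the letters only.

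Levels are given as CPM, read counts scaled to the same total in every library (counts per 1e6), listed by replicate. Libraries held 7183303 to 11360308 reads, so 1 read is worth about 0.1 CPM. Transgenic libraries carried Lmo2 at group means of 114 ± 43.7 CPM at DN2 and, at DN3a, 33.8 ± 6.77 in young and 25.3 ± 4.72 in old mice (SD, n = 3), against 0.205 to 0.330 CPM in the wild-type groups. Il2ra, a defining gene of DN2 and DN3 cells, had a mean of at least 1424 CPM in every group. Kit, a DN2 gene, had a mean of at least 72.3 CPM in every group. Their presence does not tell the stages apart. The 12 stage markers read were not alike between genotypes, with 2 higher and 4 lower in transgenic DN2, 1 and 4 in young DN3a and 1 and 6 in old DN3a by the edgeR test described with the DN2 results. Of all genes tested, 25.3% were called in DN2, 9.86% in young and 30.6% in old DN3a. In transgenic DN2 the higher markers were Kit (2.08 ± 0.28 in log2) and Dtx1 (1.83 ± 0.33). The lower ones were Ptcra, the pre-T cell receptor gene (-4.87 ± 0.40), Il7r (-2.92 ± 0.20), Rag1 (-2.90 ± 0.28) and Rag2 (-1.27 ± 0.28). Ptcra, Rag1 and Rag2 were lower in transgenic DN3a too, at both ages. These markers, and the marker genes named with other cell types, were picked after their values were seen. So the genotypes compared at 1 stage differ in markers of that stage, and the part of this in the results was not tested. Quality was uneven: wild-type DN2 replicate 1 had reads in 13028 genes, against 14447 to 15680 in the other libraries. Mitochondrial transcripts made up 12.2 to 13.4% of reads in wild-type and 1.96 to 3.75% in transgenic DN2. An unnamed feature took 3.81 to 16.6% of reads in transgenic DN2 and 0.609 to 1.33% in wild-type DN2. The part these differences play in the DN2 results was not tested, beyond leaving out that feature with Lars2 and the mitochondrial genes, which changed the call of 0 of the 7 genes.

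**Figure D1:**
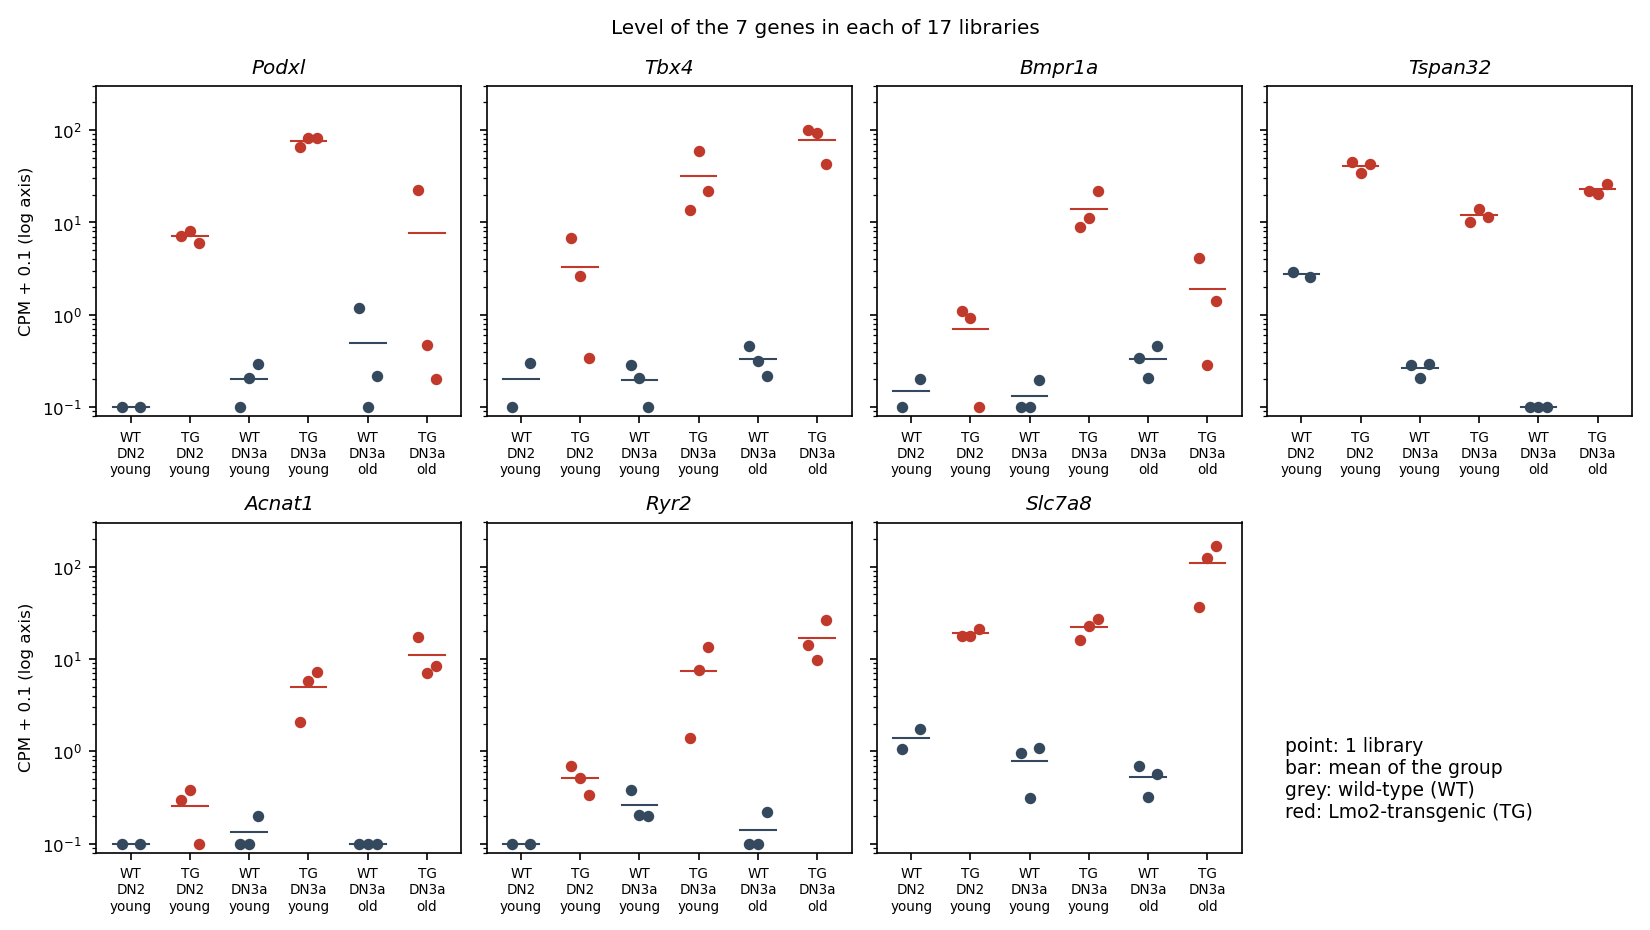
CPM + 0.1 on a log axis for each of the 7 genes in 17 libraries, in 6 groups by genotype, stage and age; points are libraries and bars group means. Transgenic DN2 libraries sit well above wild-type DN2 for Tspan32, Slc7a8 and Podxl, near the floor for Acnat1, and spread widely for Tbx4.

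The answer for DN2 differed by gene. Tspan32, Slc7a8 and Tbx4 were higher in transgenic than in wild-type DN2, and Podxl, Ryr2, Bmpr1a and Acnat1 did not pass the test. The test was edgeR's quasi-likelihood F test over 13534 genes with Benjamini-Hochberg adjustment at 0.05. All 7 genes passed its filter on low counts, and did so through transgenic libraries, so the count of 3 called of 7 is no support for the choice. Under other settings 2 to 4 of the 7 were called, though not every setting tested all 7. In that comparison 25.3% of all genes tested were called, 13.3% as higher and 12% as lower, with a median log2 fold change of 0.03. By libraries, 5 of the 7 (all but Bmpr1a and Acnat1) had every transgenic DN2 library above both wild-type ones, as did 22.5% of all genes tested. In bulk samples, fewer cells of a type and less RNA per cell cannot be told apart.

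Tspan32 was the member most abundant in DN2. Its wild-type DN2 libraries held 2.82 and 2.46 CPM, and its transgenic DN2 libraries 44.6, 34.4 and 42.5 CPM. The groups were far apart, with little spread within each. The means were 2.64 ± 0.252 (SD, n = 2) and 40.5 ± 5.42 CPM (SD, n = 3), a ratio of 15.4. The log2 fold change was 4.02 ± 0.30 (SE), with an edgeR adjusted p of 1.92e-07.

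Tspan32 was also the only one of the 7 with a higher mean in transgenic DN2 than in transgenic DN3a. Young DN3a libraries held 0.190, 0.106 and 0.197 CPM in wild-type mice and 10.0, 14.0 and 11.4 CPM in transgenic mice. In old mice the values were 0 CPM in all 3 wild-type libraries and 21.8, 20.4 and 26.3 CPM in the transgenic ones. Every DN2 library thus exceeded every young DN3a library of its genotype, as did 15.8% of all genes tested in wild-type and 18.8% in transgenic cells. The ratio of DN2 to young DN3a means was 16.0 in wild-type cells, where DN3a rests on 5 reads, and 3.43 in transgenic cells. Within a transgenic mouse the DN2 level was 3.19, 3.01 and 4.24 times the DN3a level.

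Slc7a8 was detected in both genotypes at DN2 too. Wild-type DN2 libraries held 0.968 and 1.64 CPM and transgenic DN2 libraries 17.7, 17.7 and 21.0 CPM. The means of 1.30 ± 0.475 (SD, n = 2) and 18.8 ± 1.89 CPM (SD, n = 3) stand in a ratio of 14.4. The log2 fold change was 3.95 ± 0.61 (SE), with an edgeR adjusted p of 0.000243. With limma voom and quality weights the adjusted p was 0.0573.

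Unlike Tspan32, Slc7a8 stood at about the same level at both stages of young transgenic mice. Young DN3a libraries held 0.855, 0.213 and 0.986 CPM in wild-type and 15.9, 22.6 and 27.0 CPM in transgenic mice, overlapping the DN2 values of the same genotype in the transgenic case. Within a transgenic mouse the DN3a level was 1.27, 1.53 and 0.758 times the DN2 level. Old DN3a libraries held 0.598, 0.218 and 0.473 CPM in wild-type mice. In old transgenic mice they held 36.0 CPM at 6 weeks and 125 and 165 CPM at 10 weeks, all above the young.

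Podxl had reads in transgenic DN2 only. Both wild-type DN2 libraries had 0 CPM, and the transgenic ones 7.06, 8.07 and 5.90 CPM, with little spread. In reads this is 0 against 178, at least 49.3-fold if 3 counts over the wild-type group are taken as the floor. The edgeR log2 fold change was 9.13 ± 3.13 (SE), with an adjusted p of 0.0543, just outside the threshold. That value depends on how the spread is estimated. The adjusted p was 0.0149 with edgeR's dispersion shrinkage not robust to outliers, 0.00158 in a fit of the DN2 libraries alone, 0.0358 with limma voom, and 0.0646 to 0.228 when any 1 DN2 library was left out.

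The DN2 level of Podxl was small beside its level in young DN3a. Wild-type young DN3a libraries held 0, 0.106 and 0.197 CPM, and transgenic ones 65.4, 81.7 and 82.7 CPM. In transgenic cells the DN3a mean was 10.9 times the DN2 mean. Within a mouse the ratio was 11.6, 10.2 and 11.1, a narrow range. For Podxl and the other genes higher in DN3a, expression in DN2 cells and DN3a cells within the DN2 samples cannot be told apart. The part of each was not tested.

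Tbx4 had an uneven DN2 level. Wild-type DN2 libraries held 0 and 0.205 CPM, and transgenic ones 6.76, 2.51 and 0.241 CPM. The lowest transgenic library and the highest wild-type library each rest on 2 reads, so the groups barely part. Pooled over each group and scaled to library totals, the ratio of reads was 36.4 (exact 95% interval 9.77 to 305, for counting error only). The log2 fold change was 4.96 ± 1.41 (SE), with an edgeR adjusted p of 0.0198. The call was lost without wild-type DN2 replicate 1 (adjusted p = 0.173), wild-type DN2 replicate 2 (0.0515) or transgenic DN2 replicate 1 (0.0727), and with limma voom (0.423) or in a fit of the DN2 libraries alone (0.0616).

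In DN3a the Tbx4 values were much larger. Young wild-type libraries held 0.190, 0.106 and 0 CPM and young transgenic ones 13.4, 59.5 and 21.6 CPM. The spread within the transgenic group is wide, with 59.5 CPM in mouse 162. The same mouse gave the highest DN2 value, and mouse 166 the lowest value at both stages. In the 2 transgenic mice with more than 2 reads at DN2, the DN3a level was 8.80 and 8.63 times the DN2 level.

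Bmpr1a, Ryr2 and Acnat1 were scarcely detected in DN2 of either genotype. Bmpr1a held 0 and 0.103 CPM in wild-type and 0.994, 0.835 and 0 CPM in transgenic DN2, which is 1 and 16 reads. One transgenic library was thus at 0, below a wild-type one. The log2 fold change was 3.43 ± 1.54 (SE, edgeR adjusted p = 0.108). Ryr2 held 0 CPM in both wild-type libraries and 0.597, 0.418 and 0.241 CPM in transgenic DN2, which is 11 reads, at least 2.94-fold by the 3-count floor. Its adjusted p was 0.0503 with edgeR and 0.0227 with DESeq2. Acnat1 held 0 CPM in both wild-type libraries and 0.199, 0.278 and 0 CPM in transgenic DN2, which is 4 reads (edgeR adjusted p = 0.149). For a wild-type DN2 group with 0 reads the 3-count floor is 0.142 CPM and the exact 95% upper Poisson limit 0.175 CPM.

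The same 3 genes were clearly present in young transgenic DN3a. Bmpr1a held 8.73, 11.2 and 21.9 CPM there against 0, 0 and 0.0986 in wild-type. Ryr2 held 1.30, 7.48 and 13.3 CPM against 0.285, 0.106 and 0.0986. Acnat1 held 1.95, 5.64 and 7.15 CPM against 0, 0 and 0.0986. Each was lowest in transgenic replicate 1 and highest in replicate 3. Transgenic replicate 1, from mouse 166, also had the largest share of the unnamed feature in its group (13.9%, against 7.13 and 0.876%), and its part in these levels was not tested. The ratio of transgenic DN3a to DN2 means was 22.9 for Bmpr1a, 17.6 for Ryr2 and 30.9 for Acnat1, the last resting on 4 DN2 reads.

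**Figure D2:**
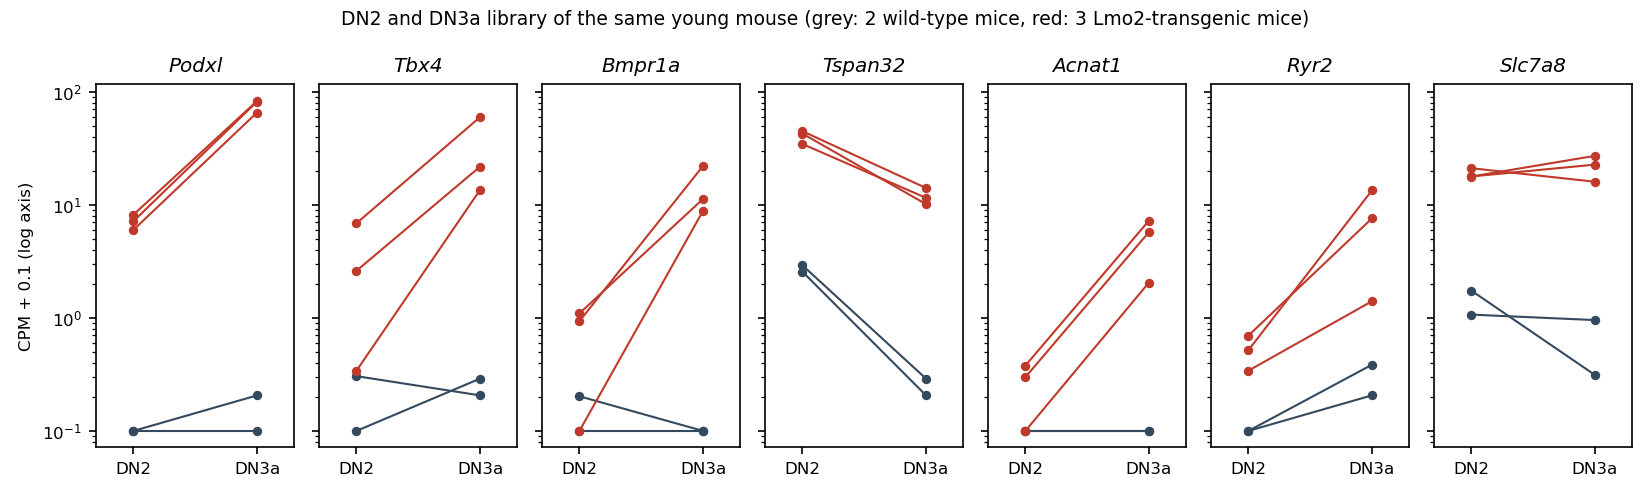
CPM + 0.1 on a log axis in the DN2 and young DN3a library of the same mouse, joined by a line, for 2 wild-type and 3 transgenic mice. The transgenic lines of Podxl run upward in parallel (11.6, 10.2 and 11.1 times), those of Tspan32 run downward, and those of Slc7a8 stay near level.

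Over the 6 groups the order of levels differed between genes. For Podxl the mean was highest in young transgenic DN3a (76.6 ± 9.71 CPM), followed by old transgenic DN3a (7.55 ± 12.7, or 0.236 without replicate 1) and transgenic DN2 (7.01 ± 1.09), which do not differ beyond their spread. Bmpr1a had the same order, with 13.9 ± 7.03, 1.83 ± 1.95 (0.750 without replicate 1) and 0.610 ± 0.534 CPM, again with the latter 2 inside their spread. For Tbx4 the order was old transgenic DN3a (78.7 ± 31.0), young transgenic DN3a (31.5 ± 24.6, or 17.5 without replicate 2) and transgenic DN2 (3.17 ± 3.31 CPM, or 1.37 without replicate 1), the first 2 overlapping. Ryr2 (16.6 ± 8.61, 7.36 ± 6.00 and 0.418 ± 0.178 CPM) and Acnat1 (10.8 ± 5.61, 4.91 ± 2.67 and 0.159 ± 0.143 CPM) followed the order of Tbx4, also with overlapping DN3a ages. Slc7a8 was highest in old transgenic DN3a (109 ± 66.1), with young transgenic DN3a (21.8 ± 5.59) and transgenic DN2 (18.8 ± 1.89 CPM) inside their spread. For Tspan32 the order was transgenic DN2 (40.5 ± 5.42), old transgenic DN3a (22.8 ± 3.11) and young transgenic DN3a (11.8 ± 2.00 CPM), with no overlap between the 3. All wild-type means of the 7 genes lay between 0 and 2.64 CPM.

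Between genes, levels are comparable only per length, as RPKM (CPM per kilobase counted). In transgenic DN2 the mean was 22.2 RPKM for Tspan32, 4.66 for Slc7a8, 1.32 for Podxl and 0.973 for Tbx4. In young transgenic DN3a Podxl led with 14.4 RPKM, ahead of Tbx4 (9.67), Tspan32 (6.46), Slc7a8 (5.41), Bmpr1a (2.61), Acnat1 (0.973) and Ryr2 (0.438). Ryr2, the longest of the 7 at 16813 counted bases, was thus the least abundant per length despite 205 reads.

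Age divided the 7 genes in transgenic DN3a. Podxl held 22.2 CPM at 6 weeks and 0.370 and 0.101 CPM at 10 weeks, all below the lowest young transgenic library (65.4 CPM). The 10-week values are 4 and 1 reads, and lie within the range of old wild-type DN3a (1.08, 0 and 0.118 CPM). Bmpr1a held 3.98 CPM at 6 weeks and 0.185 and 1.32 CPM at 10 weeks, again below every young transgenic library. Old wild-type DN3a held 0.239, 0.109 and 0.355 CPM of it, so 1 of the 10-week transgenic libraries was inside the wild-type range. In the old comparison Podxl and Bmpr1a are therefore the 2 genes whose genotypes overlap. For the other 5, whose DN3a levels the choice used, every transgenic library was above every wild-type one, as for 21.3% of all genes tested. Among all genes tested, 10.9% had every old transgenic DN3a library below every young one.

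Tbx4, Ryr2 and Acnat1 overlapped between ages and stayed present at 10 weeks. Tbx4 held 99.1 CPM at 6 weeks and 94.0 and 43.0 CPM at 10 weeks, against 0.359, 0.218 and 0.118 in old wild-type. Ryr2 held 13.9, 9.63 and 26.2 CPM, against 0, 0 and 0.118. Acnat1 held 17.3, 6.95 and 8.30 CPM, against 0 in each old wild-type library. None of these had every old transgenic library above the young ones. Slc7a8 and Tspan32 did, as did 18.4% of all genes tested, with old means 4.98 and 1.93 times the young means. The age of 10 weeks and the library name letter b coincide among the transgenic DN3a libraries and cannot be told apart.

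**Figure D3:**
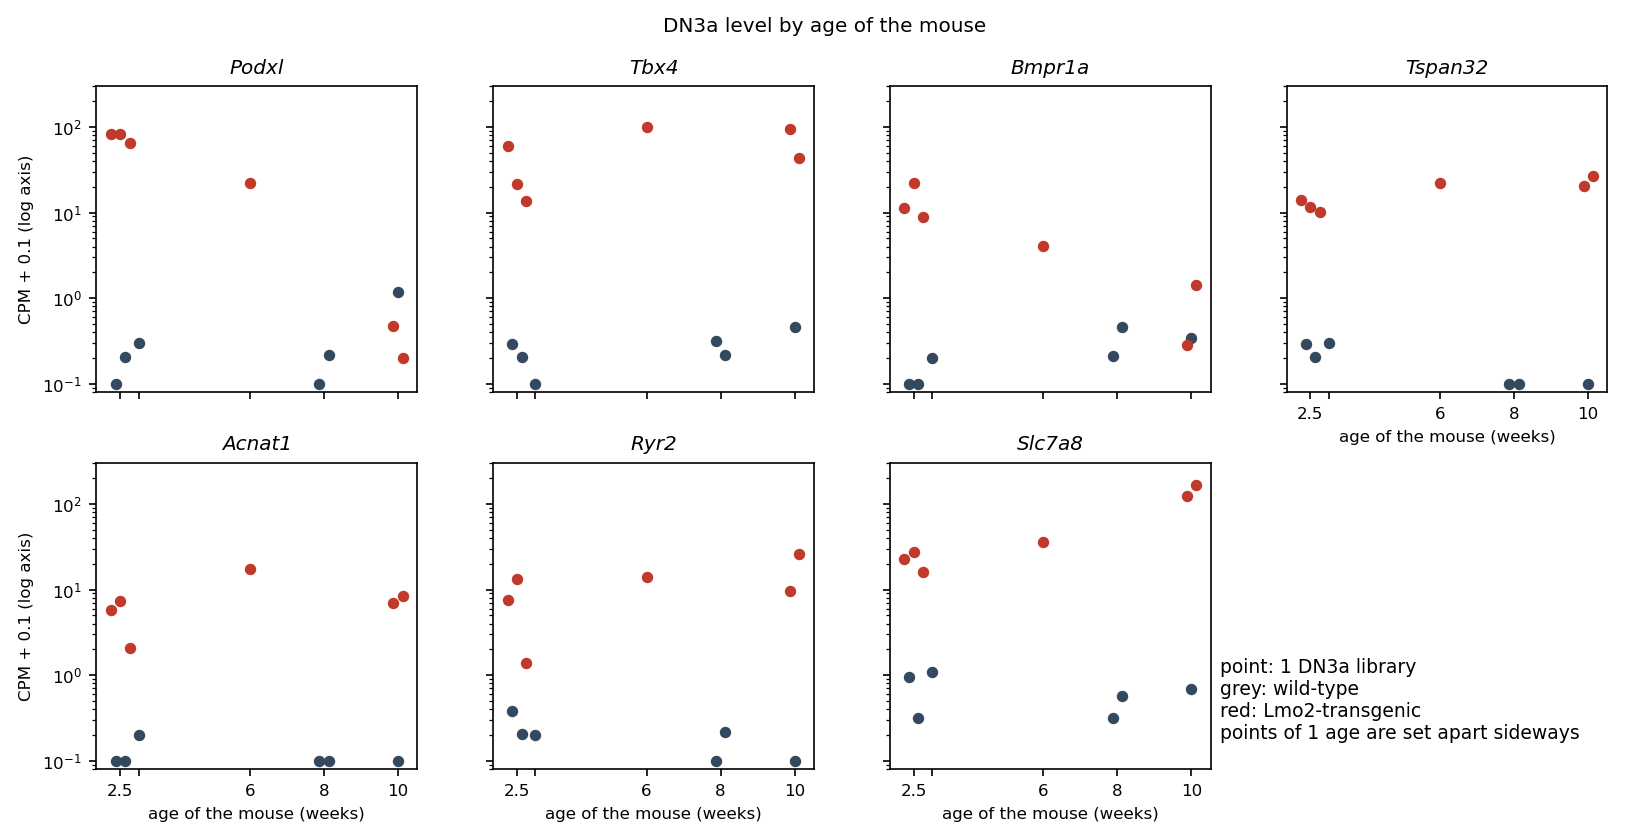
DN3a level (CPM + 0.1, log axis) against the age of the mouse in weeks for the 7 genes; points are libraries, red transgenic and grey wild-type. Podxl stands at 65.4 to 82.7 CPM in young transgenic libraries, 22.2 at 6 weeks and 0.370 and 0.101 at 10 weeks. For Tbx4, Ryr2, Acnat1, Slc7a8 and Tspan32 every transgenic library lies above every wild-type one. No wild-type mouse was aged 6 weeks.

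To place the 7 genes, all genes with a mean under 1 CPM in wild-type young DN3a and of at least 2 CPM in transgenic young DN3a were listed, thresholds set after the values were seen. The list had 141 genes. Of the 7, Acnat1 lay nearest the upper threshold (4.91 CPM) and Slc7a8 nearest the lower one (0.685 CPM). Wild-type DN2 reached 1 CPM for 51 of the 141 (36.2%), among them Tspan32 and Slc7a8. Transgenic DN2 reached 2 CPM without wild-type DN2 reaching 1 for 24 (17%), among them Podxl and Tbx4, though Tbx4 falls out of this class without transgenic DN2 replicate 1 (1.37 CPM). Neither DN2 group reached its threshold for 66 (46.8%), among them Acnat1, Bmpr1a and Ryr2. Transgenic DN2 exceeded transgenic young DN3a for 32 (22.7%), of the 7 only Tspan32. Both 10-week transgenic libraries were under 1 CPM for 28 (19.9%), of the 7 only Podxl, and in 8 of these the 6-week library still held at least 2 CPM.

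The likeness of other genes was measured by Pearson's r of log2 CPM over the 17 libraries, given as a description. The libraries share their groups, so any gene that follows genotype and stage scores high. Nearest to Podxl were Myo6 (0.92), Pdlim4 (0.85) and B4galnt2 (0.85). Myo6, which encodes a myosin motor, stood at 84.0 CPM in young transgenic DN3a and 22.0 in old. Nearest to Bmpr1a were Chd7 (0.92), Rps6ka6 (0.91) and again Myo6 (0.90). Nearest to Tbx4 were Cpeb1 (0.98), Slc22a4 (0.97) and Pwwp3b (0.97), which were like it near 0 in all wild-type groups. Acnat1 was nearest to Myh10 (0.99), Cyp1b1 (0.98) and Arsi (0.98), and Ryr2 to Lsmem1 (0.96), Dpf3 (0.95) and Myh10 (0.95). Myh10, which encodes a nonmuscle myosin heavy chain, is not silent in wild-type cells (22.9 to 30.6 CPM group means). Tspan32 was nearest to Mdga1 (0.97), the integrin subunit gene Itgb7 (0.97) and Dennd6a (0.97), and Slc7a8 to Trib2 (0.97), Tenm4 (0.96) and Tnk2 (0.96). Between the 7 genes r ranged from 0.49 (Bmpr1a and Tspan32) to 0.97 (Acnat1 and Ryr2), with 0.95 for Tbx4 and Acnat1 and 0.86 for Podxl and Bmpr1a.

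The nearest gene on each side was read as a level, 14 genes in all, of which 5 had 0 reads in every library. Mkln1, which ends 2683 bases from Podxl, had group means of 67.6 to 103 CPM in every genotype and stage. Tbx2, a T-box gene 44418 bases from Tbx4, stood at 0.165 CPM in old transgenic DN3a, where Tbx4 stood at 78.7. Acnat2, the closest relative of Acnat1 and 35380 bases away, had at most 1 read in a group, and Baat, a bile acid N-acyltransferase 8100 bases away, at most 2 reads. Mmrn2 near Bmpr1a had 1 read in 17 libraries. R74862, a noncoding RNA gene 2297 bases from Tspan32, had group means of 0.0394 to 1.90 CPM, with a larger mean in transgenic than wild-type DN3a at both ages, as Tspan32 had, but not in DN2. Cebpe, a myeloid transcription factor gene near Slc7a8, had 0 reads in each wild-type group and 5, 4 and 17 reads in transgenic DN2, young and old DN3a. Homez, on the other side of Slc7a8, had group means of 13.2 to 23.3 CPM, and Mtr near Ryr2 of 59.4 to 97.5 CPM. No source used here gives the strand of the counts. No neighbouring gene model overlapped any of the 7 genes.

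Markers of other cell types that the DN2 samples could hold were read from lists. The summed level of 10 myeloid genes was 15.7 to 21.3 CPM in wild-type DN2 and 116 to 148 CPM in transgenic DN2, with Mpo at 76.8 ± 10.1 CPM (SD, n = 3), so it moved with Tspan32, Slc7a8 and Podxl in that comparison. Of the 10, Elane, Cd14, S100a8 and S100a9 had 0 reads in transgenic DN2. In transgenic DN3a the myeloid sum was 3.06 to 6.25 CPM, below wild-type DN3a (18.0 to 36.5 CPM). Podxl also marks endothelium: of 10 endothelial genes, Kdr, Emcn, Cldn5 and Tie1 had 0 reads in both DN2 groups, and the sum of 246 to 290 CPM in transgenic DN2 was nearly all Pecam1 (264 ± 21.2 CPM). Of 8 megakaryocyte genes, Pf4, Gp1bb and Ppbp had 0 reads in every group. The sum of the 8 was 71.4 to 95.0 CPM in transgenic and 34.1 to 35.0 CPM in wild-type DN2. In young DN3a it was 68.6 to 117 against 29.3 to 30.3 CPM, and in old DN3a 72.2 to 160 against 30.5 to 34.6 CPM. By edgeR, all 3 genes tested (Itga2b, Gp1ba and Itgb3) were higher in transgenic DN2. In transgenic DN3a 1 was higher in young mice, and 1 was higher and 2 lower in old mice. For Ryr2, 8 muscle genes summed to at most 5.53 CPM in any library, highest in wild-type DN3a, and for Acnat1, 6 liver genes summed to at most 0.308 CPM. The 8 markers of double positive and mature T cells, each with reads in every group, had a higher sum in transgenic cells at DN2 and at both DN3a ages. Not all 7 genes had that pattern: Bmpr1a and Acnat1 overlapped between genotypes at DN2, and Podxl and Bmpr1a in old DN3a. The sum of the 8 markers was 33.2 to 39.6 CPM in wild-type and 68.5 to 105 CPM in transgenic DN2. It was 26.6 to 27.7 against 82.6 to 157 CPM in young DN3a and 20.3 to 25.5 against 124 to 187 CPM in old DN3a. By edgeR, 2 of the 8 were higher and 1 lower in DN2, 4 were higher in young DN3a, and 4 were higher and 1 lower in old DN3a. Cd8a (4.11 ± 0.65), Trac (3.31 ± 0.53) and Cd5 (2.24 ± 0.20) were among the higher in young DN3a. Erythroid markers were few: their sum was at most 2.26 CPM in wild-type and 4.18 to 7.96 CPM in transgenic DN2, where Hbb-bs had 0 against 109 reads (adjusted p = 0.000471). The part of RNA of other cell types in the results was not tested.

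The other BMP pathway genes did not follow Bmpr1a as a group. Of 14 further ligand genes only Bmp7 and Bmp1 were expressed enough to test. Bmp7, a ligand, was lower in transgenic DN2 (log2 fold change -1.19 ± 0.37, edgeR adjusted p = 0.0247) and higher in transgenic young DN3a (1.71 ± 0.30, adjusted p = 0.000875) and old DN3a (2.74 ± 0.31, adjusted p = 2.55e-06). Its mean was 7.18 CPM in wild-type and 20.9 in transgenic young DN3a, so ligand and receptor transcripts were both present there. The DN2 call was lost without wild-type DN2 replicate 2 (adjusted p = 0.349) or transgenic DN2 replicate 3 (0.109), with limma voom (0.0511) and in a fit of the DN2 groups alone (0.208). Bmp1, a metalloprotease despite its name, was higher in transgenic DN2 (2.81 ± 0.61) and lower in old transgenic DN3a (-2.82 ± 0.70).

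Bmpr1b, the closest relative of Bmpr1a, had 0 reads in every library. Bmpr2, the type II partner, did not pass the test in any of the 3 settings (1.21 ± 0.68 in DN2, 0.04 ± 0.60 in young and -1.73 ± 0.68 in old DN3a). Of 6 receptor genes tested, Bmpr2 included (medians 0.77, -0.38 and -1.37), 2 passed in DN2, both higher (Acvrl1 3.34 ± 1.01 and the coreceptor gene Eng 1.61 ± 0.29). In young DN3a 1 passed (Eng -1.39 ± 0.25), and in old DN3a 2 passed, both lower (Eng -3.66 ± 0.29 and Acvr1 -4.42 ± 1.35). The share of all genes called was 9.86% in young DN3a (4.7% higher, 5.16% lower) and 30.6% in old DN3a (14.9% higher, 15.7% lower). Acvrl1 lost its call without wild-type DN2 replicate 1 (adjusted p = 0.164) or transgenic DN2 replicate 3 (0.0698) or in the DN2 groups alone (0.0689), and Acvr1 without old transgenic replicate 2 (0.0743) or 3 (0.0661), whereas Eng kept its calls in every alternative run.

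Effectors and targets of BMP signalling moved both ways. Of 10 tested, 3 were higher and 3 lower at DN2 and 1 and 1 at young DN3a, and 2 were lower and no other called at old DN3a, with medians of 0.33, -0.47 and -0.37 against medians of 0.03, 0.02 and -0.04 over all genes. Smad7, an inhibitory SMAD and a target of the pathway, was higher in transgenic DN2 (2.29 ± 0.34) and young DN3a (1.09 ± 0.29). Bambi, an inhibitor counted here and not with the inhibitors below, was higher in transgenic DN2 (1.84 ± 0.62, edgeR adjusted p = 0.0373). Bambi was named after its values were seen. Atoh8, a target in other tissues, was lower in all 3 settings (-4.08 ± 0.75, -3.27 ± 0.44 and -8.03 ± 0.73). Of the Id genes, classic targets that inhibit E proteins, Id1 was higher (2.22 ± 0.76) and Id3 (-2.20 ± 0.37) and Id2 (-1.31 ± 0.46) were lower in transgenic DN2. Id2 was named after its values were seen, and its call was lost with the replicate block (adjusted p = 0.0827) and without wild-type replicate 1 (0.286) or transgenic replicate 1 (0.109) or 2 (0.126). The estimate for Id1 was -0.89 ± 0.63 in young DN3a, where Bmpr1a was most abundant, and did not pass. Smad7 lost its young DN3a call without wild-type replicate 1 (adjusted p = 0.108) or 2 (0.109) or transgenic replicate 1 (0.0779) or 3 (0.069). Id1 lost its DN2 call without wild-type replicate 1 (0.286) or transgenic replicate 2 (0.106) or 3 (0.081), and in the DN2 groups alone (0.143). Of 3 inhibitors tested, 1 was higher in DN2 (Smurf2, 0.89 ± 0.23), a call lost without wild-type replicate 1 (0.0954) or in the DN2 groups alone (0.0538). At either DN3a age 0 of the 3 passed by edgeR, DESeq2 or limma voom, and 0 had an unadjusted edgeR p under 0.05.

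**Figure D4:**
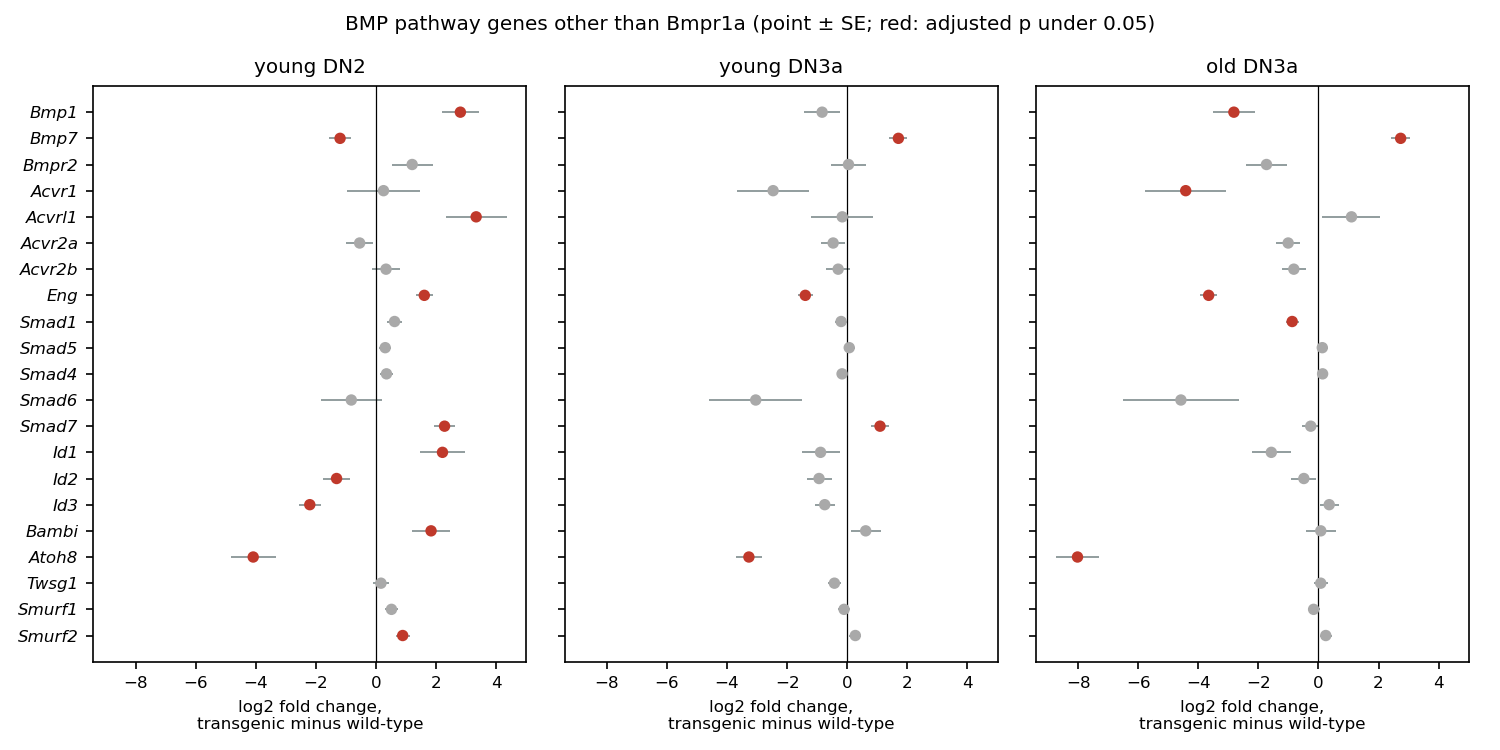
Log2 fold change, transgenic minus wild-type, of 21 tested BMP pathway genes other than Bmpr1a at DN2 and at DN3a of either age; points are edgeR estimates, lines ± SE, red an adjusted p under 0.05. Bmp7 lies left of 0 in DN2 and right of 0 in both DN3a panels, Eng the other way, and Atoh8 left of 0 in each.

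Relatives of the other 6 genes were read the same way, against 25.3% of all genes called at DN2, 9.86% at young and 30.6% at old DN3a, and medians of 0.03, 0.02 and -0.04. For Podxl, 7 genes of the CD34 family and its ezrin adaptors were tested. Cd34 was higher in transgenic DN2 (3.06 ± 0.96) and Msn, which encodes the cytoskeletal linker moesin, in all 3 settings (0.84 ± 0.25, 1.09 ± 0.22 and 1.65 ± 0.23). The list had 2 calls at DN2, 1 at young and 3 at old DN3a, all higher, with medians of 0.18, 0.39 and 0.22. These counts are near the shares of all genes called. The Cd34 call was lost with DESeq2 (adjusted p = 0.0903), no filter (0.0791) or the replicate block (0.0774), and without any of 4 DN2 libraries (wild-type replicates 1 and 2, transgenic replicates 2 and 3, 0.0815 to 0.22). The DN2 call of Msn was lost without any of the same 4 libraries (0.0553 to 0.104). Cd34 stood at 59.3 CPM in transgenic DN2 but 1.82 in transgenic young DN3a, the reverse of the order of Podxl. Podxl2, the closest relative of Podxl, did not pass in any setting (-1.65 ± 1.15, -1.63 ± 0.91 and -1.48 ± 1.01).

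For Tspan32, 20 other tetraspanin genes were tested, with 7 higher and 1 lower at DN2, 2 and 1 at young and 2 and 1 at old DN3a, and medians of 0.50, -0.06 and -0.15. Set against 25.3%, 9.86% and 30.6% of all genes, 8, 3 and 3 of the 20 were called. Cd53, a tetraspanin of leukocytes, was the one higher in all 3 settings (1.22 ± 0.28, 1.81 ± 0.25 and 1.63 ± 0.24). Cd81 was higher in young (1.97 ± 0.28) and old DN3a (3.39 ± 0.31), and its estimate in DN2 was -0.05 ± 0.30 (adjusted p = 0.918). Tspan9 was higher in DN2 (1.41 ± 0.31) and lower in young DN3a (-1.35 ± 0.28). These named calls were kept in every alternative run.

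For Slc7a8, 6 genes of the heteromeric amino acid transporter family were tested. Slc3a2, the heavy chain that LAT2 needs, was higher in transgenic young (0.86 ± 0.22) and old DN3a (0.65 ± 0.22), and its estimate in DN2 was -0.19 ± 0.25 (adjusted p = 0.603). Slc7a5, the related light chain LAT1, was lower in transgenic DN2 (-1.64 ± 0.21), where Slc7a8 was higher, and higher in young DN3a (0.67 ± 0.19). These were all the calls of the list, whose medians were 0.52, 0.42 and 0.04. The DN3a calls were lost when single libraries were left out. For Slc3a2 the adjusted p was 0.0613, 0.0894 and 0.0956 without young wild-type replicate 1 or 2 or transgenic replicate 3, and 0.0895 to 0.16 without old wild-type replicate 1 or 3 or transgenic replicate 2 or 3, and 0.0788 in the old groups alone. For Slc7a5 it was 0.0528 to 0.147 without young wild-type replicate 1 or 2 or transgenic replicate 2 or 3.

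For Ryr2, 19 genes of calcium release from internal stores were tested, with 3 higher and 1 lower at DN2, 2 and 2 at young and 3 and 4 at old DN3a, and medians of 0.09, -0.13 and -0.07. At DN2 and old DN3a these counts are near the shares of all genes called (25.3% and 30.6%). Ryr1, the skeletal muscle relative, was lower in transgenic young (-1.61 ± 0.39) and old DN3a (-1.69 ± 0.39), where Ryr2 was present. Ryr3 did not pass in any setting (1.63 ± 1.08, 2.56 ± 0.84 and 1.31 ± 0.71). Itpr1, an IP3 receptor gene, was lower in young (-1.15 ± 0.22) and old DN3a (-1.52 ± 0.23), and the calcium pump gene Atp2a3 was higher in young DN3a (0.96 ± 0.16). Jph2, which encodes a heart junctional protein that works beside RYR2, was lower in DN2 (-4.14 ± 0.96) and old DN3a (-2.46 ± 0.70). The young DN3a call of Ryr1 was lost without wild-type replicate 2 (adjusted p = 0.077), and the old DN3a call of Jph2 without wild-type replicate 1 (0.134) or transgenic replicate 2 (0.0626). Of the partners, Casq2 had 0 reads in every library and Trdn 2 reads in all.

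For Tbx4, 4 other T-box genes were tested, with medians of 0.91, 0.00 and -0.81. In DN2 1 passed (Tbx19 -1.26 ± 0.43). In young DN3a 0 of 4 passed by edgeR, DESeq2 or limma voom, and 0 had an unadjusted edgeR p under 0.05. In old DN3a Tbx2 (-4.04 ± 0.87) and Tbx6 (-1.48 ± 0.45) were lower and Tbx19 (1.01 ± 0.38) was higher. Tbx19 lost its DN2 call without any 1 of wild-type replicates 1 and 2 and transgenic replicates 2 and 3 (adjusted p 0.0966 to 0.127) or in the DN2 groups alone (0.13). It lost its old DN3a call without any 1 of the 3 wild-type libraries or of transgenic replicates 1 and 3 (0.0762 to 0.217), with limma voom (0.111) or no filter (0.062), with sex (0.0549) or library letter (0.0502) as covariate, and in the old groups alone (0.0793). Tbx6 lost its call without wild-type replicate 1 (0.132) or transgenic replicate 1 (0.0618) or 3 (0.0597), and Tbx2 kept its call in every alternative run. Tbx5, the closest relative of Tbx4 and its forelimb counterpart, had 0 reads in every library. For Acnat1, 10 acyltransferase and acyl-CoA thioesterase genes were tested, and 2 passed in DN2, both lower, and 3 in old DN3a, all higher, with medians of -0.40, 0.02 and 0.46. In young DN3a 0 of 10 passed by edgeR, although 3 had an unadjusted p under 0.05, and 1 passed by DESeq2 and 3 by limma voom. Acot5, a peroxisomal thioesterase gene, was lower in transgenic DN2 (-2.83 ± 0.38).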

How the data were processed

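The authors deposited raw read counts per gene, and the submitters' processing notes name featureCounts and mm10. No source used here gives the aligner, annotation or strand. Per the labels' protocols the libraries were TruSeq and read single-end. All 17 single-library files equalled their columns. Symbols were found for 25275 of 27179 Entrez identifiers in RefSeq, and spans and promoters are from its GRCm38.p6 tables.

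CPM used library totals, and RPKM the deposited gene lengths. Counts were fitted over all libraries with 1 mean per group by edgeR 4.0.16 quasi-likelihood (TMM, filterByExpr with minimum count 10 and total 15, R 4.3.3), with Benjamini-Hochberg adjustment over 13534 genes. SE was taken as |log2 fold change| over the root of the F statistic. Robust dispersion shrinkage was chosen after first values had been seen, to match an earlier processing of the series, and the fit without it is an added alternative. The other alternatives were DESeq2 1.42.0, limma voom 3.58.1, RLE, no filter, the compared groups alone, replicate block, mouse block (stage differences), sex or library letter as covariate, removal of a feature without a name with Lars2 and mitochondrial genes, and leaving out each library.

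The 7 genes and all lists were chosen with earlier results of these data known. Named besides them are the 3 nearest genes by r, chromosome neighbours, close relatives, and the largest called changes of each list, of which some are not described. Floors (3 counts) and 95% exact Poisson-based intervals cover counting error only. Replicates of a group came from separate mice, per the labels. The fit was tested on simulated data.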

Additional observations from a re-analysis of the deposited data

Results flagged for a closer look

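For the 7 genes no difference between genotype effects was tested, since their choice used the DN3a values. For the other named pathway genes, the genotype difference (transgenic minus wild-type, log2) was compared between stages and between ages by an edgeR interaction term with Benjamini-Hochberg adjustment. The named genes were picked for large called genotype differences in the same libraries. How many of them differed is therefore no result to set against the share of all genes. Of all 13534 genes, 20.9% differed in this way between stages and 3.05% between ages. All 5 DN2 mice also gave a young DN3a library, and that fit has no mouse term. With mouse as a block in the 10 libraries of these 5 mice (3 residual degrees of freedom, chosen after seeing the data), 18.4% of 13215 genes differed between stages. Of the 21 differences between stages called in the main fit and named here, 21 kept their sign and 17 stayed past the threshold. The libraries are part of those of the main fit, so this is no independent support. Id3 (adjusted p = 0.13), Orai1 (0.0555), Stim1 (0.0822) and Erg (0.165) did not stay past it. Without the block, the same libraries gave 20.6% and 18 of the 21.

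Between young DN3a and young DN2 (the DN3a effect minus the DN2 effect), BMP genes differed in both directions: Bmp7 by 2.90 (adjusted p = 0.00042) and Id3 by 1.45 (0.045), against Bmp1 by -3.65 (0.00495), Id1 by -3.10 (0.0316) and Eng by -3.01 (6.07e-05). Among tetraspanin genes Cd81 differed by 2.02 (0.0017) and Tspan6 by 1.34 (0.0109), and Tspan9 by -2.77 (0.000254). Among calcium genes Atp2a3 differed by 1.14 (0.00247) and Atp2a2 by 0.96 (0.00752), while Ryr1 (-1.88, 0.026), Orai1 (-1.24, 0.0281), Orai2 (-1.21, 0.00333), Itpr1 (-1.15, 0.02) and Stim1 (-0.79, 0.0365) differed the other way. The amino acid transporter genes Slc7a5 (2.31, 4.03e-05) and Slc3a2 (1.05, 0.0297) and the thioesterase gene Acot5 (2.57, 0.001) had the more positive effect in DN3a. The LMO2 partner genes Cbfa2t3 (-1.36, 0.000654), Tcf4 (-1.02, 0.007) and Erg (-0.84, 0.0433) had the more positive effect in DN2. Lyl1, another LMO2 partner gene, went the other way (1.65), not past the threshold in that fit (adjusted p = 0.165). In the 5 mice with both stages Lyl1 passed, by 3.36 with the mouse block (3.23e-05) and 3.33 without it (0.000728).

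Between old and young DN3a (the old effect minus the young effect), Atoh8 differed by -4.75 (0.0106), Tbx2, the chromosome neighbour of Tbx4, by -4.48 (0.0401), Eng by -2.26 (0.00178), Orai2 by -1.18 (0.0123) and Acot7 by 1.19 (0.0499). The young DN3a libraries enter both comparisons.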

How the results depend on the processing

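Of the 7 genes, Tspan32 kept its DN2 call in every alternative run, and Slc7a8 in all but limma voom (log2 fold change 4.07, adjusted p = 0.0573). No direction reversed. Podxl passed with limma voom (7.36, 0.0358), the replicate block (9.84, 0.0428), library letter as covariate (9.13, 2.41e-05), no robust shrinkage (9.13, 0.0149) and the DN2 groups alone (9.09, 0.00158), all with fold changes set by a wild-type group at 0. DESeq2 gave no adjusted p for Podxl. In the DN2 groups alone Bmpr1a, Ryr2 and Acnat1 were not tested. Ryr2 passed with DESeq2 (4.69, 0.0227), RLE (5.12, 0.0491), no filter (5.11, 0.0485) and sex as covariate (4.92, 0.0292). Tbx4 lost its call with limma voom (3.48, 0.423) and the DN2 groups alone (4.89, 0.0616), and leaving out 1 library gave 3.80 to 7.97. The 3426 genes called in DN2 ranged from 1535 (wild-type replicate 1 left out) to 4297 with 1 library fewer, and were 2177 or 2261 when transgenic replicate 2 or 3 was the one missing. Pathway genes called in young DN3a became 21 higher and 17 lower with limma voom and 10 lower with DESeq2; leaving out 1 library gave 7 to 12 higher and 5 to 10 lower there, 11 to 25 higher and 7 to 13 lower in DN2, and 11 to 17 higher in old DN3a. The cause of these changes was not tested. Of 72 named pathway values, 45 kept call and direction in every alternative. The replicate numbers of the titles do not pair the samples (correlations of deviations -0.019 to 0.22, over 0.1 in 4 of 8 pairs), and the replicate block called 4 of the 7 genes instead of 3. Depth limits the low levels, since 1 read is 0.0880 to 0.139 CPM.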
